A study of Mus musculus with 8 samples.

Results

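The genes described here are 45 genes of the endoplasmic reticulum, the compartment in which secreted and membrane proteins are made and folded. They were taken as a list of symbols, and all 45 of 45 were found among the 18790 named genes of the files. By role they comprise 5 genes of the signal recognition particle, 5 of the translocon, 4 of the translocon-associated protein complex, 5 of signal peptidase and 7 of oligosaccharyltransferase. The rest are 9 genes of BiP, GRP94 and their co-factors, 3 of the lectin chaperone cycle, 3 other protein disulfide isomerases, 3 genes of degradation and the transcription factor gene Xbp1.

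RNA came from 2 cell populations sorted from flushed femoral marrow of untreated C57BL/6 mice, all of which carried Csf1r-EGFP, a transgene that puts green fluorescent protein under the control of the Csf1r promoter of monocytes and macrophages. The CD11b+ population was sorted as CD11b+ F4/80+ Ly6G- VCAM1+ with low green fluorescence, and the CD11b- population as CD11b- F4/80+ VCAM1+ with green fluorescence. Each had 4 libraries, described as biological replicates and prepared by SmartSeq2, which copies whole transcripts from small amounts of RNA. Age is not given in the sources used here, nor whether mice were pooled.

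Proteins bound for secretion carry a signal peptide. The signal recognition particle reads it as it leaves the ribosome and docks the ribosome at the Sec61 channel, through which the chain is threaded. Signal peptidase then cuts the signal off, oligosaccharyltransferase attaches a preformed glycan, and chaperones and disulfide isomerases fold the chain. Misfolded chains are passed back to the cytosol for degradation, and an excess of them switches on the unfolded protein response, in which XBP1 raises many of the genes named here. In marrow, granulocyte precursors, which fill their granules with secretory proteins, and plasma cells are known for a large endoplasmic reticulum.

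Total counts over named genes were 36517568 to 47844998 in CD11b+ libraries and 27337092 to 34996595 in CD11b- libraries. A count of 0 in a single library allows up to 0.0627 to 0.0822 CPM in CD11b+ libraries and 0.0857 to 0.110 CPM in CD11b- libraries, for counting error only, where CPM stands for counts relative to a library's total over named genes. Of the genes the sort used, Itgam (CD11b) averaged 287 ± 48.5 CPM across CD11b+ and 8.35 ± 6.24 CPM across CD11b- (SD, n = 4). Genes of proteins that both gates used also differed. Adgre1 (F4/80) averaged 91.3 ± 23.8 CPM across CD11b+ and 23.0 ± 7.02 CPM across CD11b-, Vcam1 394 ± 38.0 CPM across CD11b+ and 107 ± 46.4 CPM across CD11b-, and Csf1r, whose promoter drives the reporter, 85.3 ± 15.2 CPM across the CD11b+ sort with low fluorescence and 36.0 ± 15.7 CPM across CD11b-. Resident macrophage markers summed to 1155 to 1203 CPM in CD11b+ libraries and 600 to 979 CPM in CD11b- libraries. Of 14 tested, 4 were higher and 2 lower in CD11b+. The higher ones were Adgre1, Vcam1, Csf1r and Slc40a1, with Vcam1 and Slc40a1 (385 ± 52.0 CPM) the most abundant in CD11b+. C1qc was lower, at 54.4 ± 13.0 CPM across CD11b+ and 97.5 ± 20.8 CPM across CD11b-. Hmox1 was lower too, at 39.5 ± 4.45 CPM across CD11b+ and 89.8 ± 19.7 CPM across CD11b-. C1qa, C1qb, Cd5l, Mrc1, Mertk, Axl and Spic also had lower means in CD11b+ but were not called. Siglec1, the remaining marker, was not called and had no count in 1 CD11b+ library and 2 CD11b- libraries. Granule and erythroid marker lists differed more in their sums. Primary granule genes, all 6 of 6 higher in CD11b+, summed to 58216 to 85578 CPM in CD11b+ libraries and 475 to 6837 CPM in CD11b- libraries, and erythroid genes, all 12 of 12 lower, to 706 to 1197 CPM against 32891 to 44172 CPM in CD11b-. Within CD11b-, replicates 1 and 2 stood apart by Mpo (myeloperoxidase of primary granules), at 5827 and 3966 CPM, against 1457 and 413 CPM in replicates 3 and 4. For the 45 genes and for the other pathway genes given by library, calls that change, or folds that move by more than 1.5 times, without these 2 libraries are given both ways. In RNA from whole sorted populations, fewer cells of a type and less RNA per cell cannot be told apart.

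The 45 genes were on the whole more abundant in CD11b+. Of all 45, all of which passed the filter on low counts, 23 were higher in CD11b+, 2 were lower and 20 were not called, by edgeR's quasi-likelihood test with Benjamini-Hochberg adjustment over all 11965 genes tested and a threshold of 0.05. Over all those genes, 14.6% were higher and 15.0% lower in CD11b+ (29.7% in either direction). The median log2 fold change, CD11b+ over CD11b-, was 0.69 for the 45 genes and -0.01 for all genes tested. All 4 CD11b+ libraries lay above all 4 CD11b- libraries for 24 of the 45 genes (18.1% of all genes tested), and below them for 3, Sec61g, Sec62 and Herpud1 (18.4% of all genes tested). Hyou1 is among the 23 and the 24. It passed the filter on low counts only through CD11b+, where it was high, so its place in both is a description.

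Together the 45 genes took 2.25%, 1.71%, 1.90% and 2.17% of the named counts in CD11b+ replicates 1 to 4, and 1.44%, 1.21%, 1.18% and 1.04% in CD11b- replicates 1 to 4. The summed level was 20086 ± 2466 CPM across CD11b+ and 12187 ± 1663 CPM across CD11b- (SD, n = 4), a ratio of means of 1.65. Each CD11b+ library lay above each CD11b- library. Without Hspa5 and Ssr1, the 2 most abundant by CPM in both sorts, the ratio was 1.75.

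**Figure D1:**
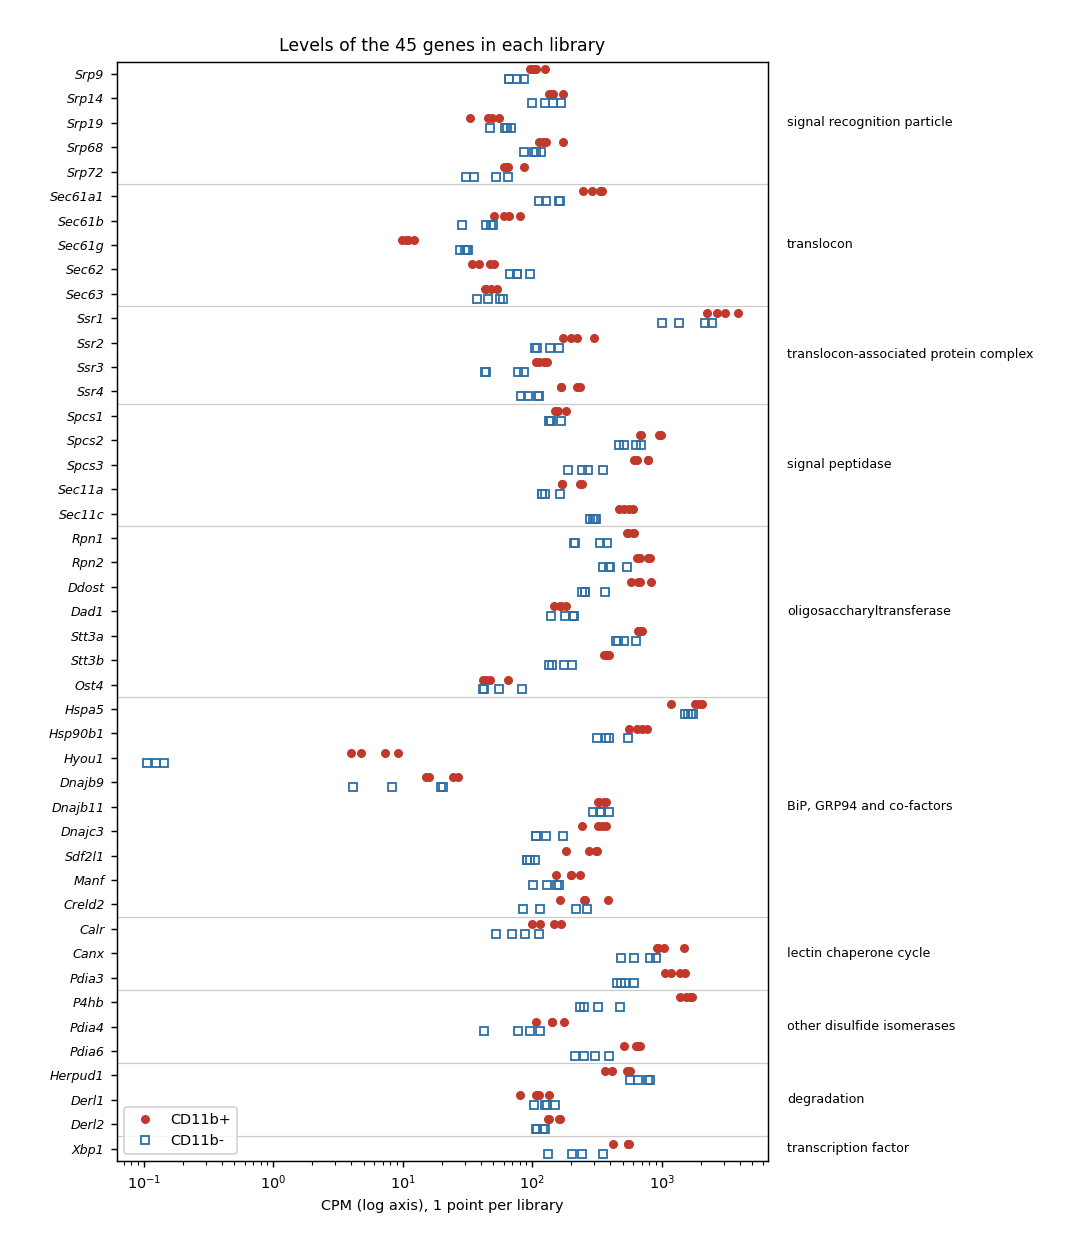
Level of each of the 45 genes in each library, in CPM on a log axis, grouped by role; filled circles are the 4 CD11b+ libraries and open squares the 4 CD11b- libraries. P4hb, Spcs3 and Ddost show groups well apart, Hspa5 and Dnajb11 show groups that overlap, and the CD11b- library with 0 CPM for Hyou1 is not drawn.

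Sums by role differed in size and in direction. Among roles with more than 1 gene, the disulfide isomerases other than Pdia3 had the highest ratio of means, 3.37, with sums of 2006 to 2499 CPM in CD11b+ libraries and 526 to 908 CPM in CD11b- libraries. Most of that sum in CD11b+ was P4hb, and without it the ratio was 2.05, with sums of 617 to 837 CPM in CD11b+ libraries and 292 to 432 CPM in CD11b- libraries. The lectin chaperone cycle followed at 1.94, and the translocon-associated protein complex, signal peptidase and oligosaccharyltransferase all stood at 1.72. Most of the translocon-associated sum was Ssr1, which was not called, at 2956 ± 701 CPM across CD11b+ and 1740 ± 673 CPM across CD11b-. Ratios were lower for the translocon (1.36), for BiP, GRP94 and co-factors (1.31) and for the signal recognition particle (1.21). Sec61a1 was the largest part of the translocon sum, at 303 ± 45.2 CPM across CD11b+ and 141 ± 25.3 CPM across CD11b-. Sec61b also had the higher mean in CD11b+, and Sec61g, Sec62 and Sec63 the lower. Hspa5 was the largest part of the BiP sum, at 1742 ± 389 CPM across CD11b+ and 1629 ± 105 CPM across CD11b-. Ratios without Sec61a1 or Hspa5 are not given. The degradation genes summed to less in CD11b+, at 577 to 836 CPM, against 821 to 1060 CPM in CD11b- libraries, a ratio of 0.769 with 1 CD11b+ library above the lowest CD11b- library. Most of that sum was Herpud1, which was not called, at 471 ± 99.9 CPM across CD11b+ and 705 ± 111 CPM across CD11b-. Derl1 also had the lower mean in CD11b+, and Derl2 the higher. The part of the other cell types' markers in these sums was not tested.

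**Figure D2:**
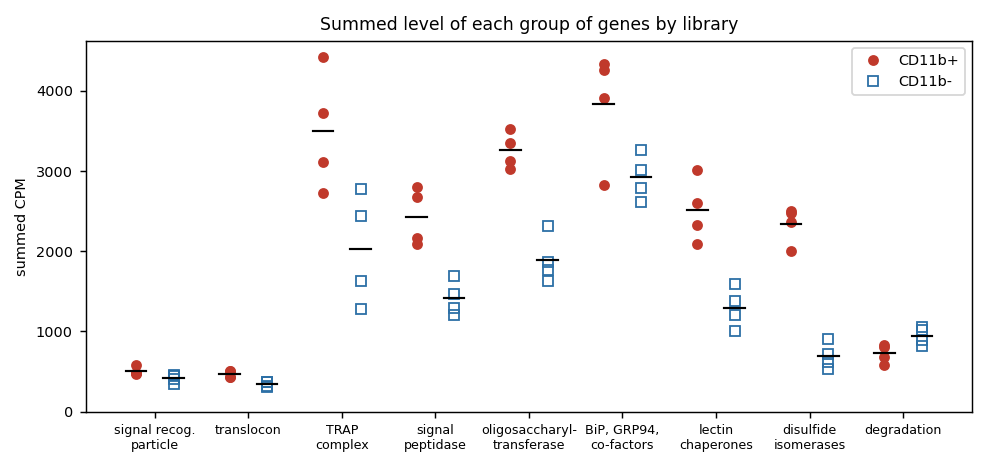
Summed CPM of the genes of each role group, 1 point per library (filled circles, CD11b+; open squares, CD11b-), with the mean of 4 libraries as a line. The disulfide isomerases are furthest apart, at 2006 to 2499 CPM in CD11b+ and 526 to 908 CPM in CD11b-, and only the degradation genes have the lower mean in CD11b+. Most of the degradation sum is Herpud1, which was not called.

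The signal recognition particle is an RNA and protein complex, and 1 of its 5 genes was called, higher in CD11b+ (20%, against 14.6% of all genes). Srp9, which with Srp14 forms the part that slows translation, had 107, 96.6, 102 and 125 CPM in CD11b+ libraries, against 65.7, 75.7, 66.4 and 85.8 CPM in CD11b- libraries. The groups did not overlap, and Srp9 was 1.51-fold higher in CD11b+ (log2 0.60, SE 0.15, edgeR adjusted p = 0.0159). That call was lost without the 2 CD11b- libraries highest in Mpo (adjusted p = 0.0871, and from 0.000945 to 0.0871 over all alternatives). Srp14, its partner, was at 148 ± 16.7 CPM across CD11b+ and 134 ± 28.8 CPM across CD11b- and was not called (adjusted p = 0.417). Srp68 and Srp72 bind each other on the RNA. Neither was called, at log2 0.41 (adjusted p = 0.109) and 0.63 (adjusted p = 0.105), though Srp72 passed without CD11b- replicate 4 (adjusted p = 0.0382, and from 0.0382 to 0.267 over all alternatives). Srp19, needed to assemble the particle, was at log2 -0.35 (adjusted p = 0.256). The particle's genes thus spread from log2 -0.35 to 0.63.

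Genes of the translocon moved in both directions. Sec61a1 encodes the channel itself, and had 345, 291, 332 and 245 CPM in CD11b+ libraries, against 164, 161, 127 and 113 CPM in CD11b- libraries. It was 2.21-fold higher in CD11b+ (log2 1.15, SE 0.17, edgeR adjusted p = 0.000732), without overlap. Sec61g, a small subunit of the same channel, went the other way, with 10.6, 9.84, 10.9 and 12.2 CPM in CD11b+ libraries, against 31.2, 32.1, 30.1 and 27.5 CPM in CD11b- libraries. It was 2.70-fold lower in CD11b+ (log2 -1.43, SE 0.28, adjusted p = 0.00318), and its replicates differed little within either group. Sec61b, the other small subunit, was at 64.4 ± 12.3 CPM across CD11b+ and 42.7 ± 9.59 CPM across CD11b- (SD, n = 4) and was not called, although its libraries did not overlap (log2 0.63, adjusted p = 0.0775).

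Sec62 and Sec63 are membrane partners of the channel that help chains enter after or during synthesis. Sec62 had 38.6, 34.2, 47.4 and 50.2 CPM in CD11b+ libraries, against 76.3, 95.9, 67.4 and 76.7 CPM in CD11b- libraries. The groups did not overlap, and Sec62 was 1.80-fold lower in CD11b+ (log2 -0.85, SE 0.19, edgeR adjusted p = 0.00771). Its adjusted p was 0.0556 without the 2 CD11b- libraries highest in Mpo (range over all alternatives 5.88e-05 to 0.0556). Sec63 was at 47.1 ± 4.71 CPM across CD11b+ and 50.0 ± 10.4 CPM across CD11b- and was not called (log2 -0.04, with a 95% interval from -0.49 to 0.42).

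The translocon-associated protein complex sits beside the channel and aids the entry of some signal sequences. Of its 4 genes, 3 were higher in CD11b+ (75%, against 14.6% of all genes). Ssr4 had 220, 167, 167 and 235 CPM in CD11b+ libraries, against 81.5, 110, 113 and 92.7 CPM in CD11b- libraries (2.03-fold higher, log2 1.02, SE 0.19, edgeR adjusted p = 0.00259). Ssr3 had 124, 112, 107 and 130 CPM in CD11b+ libraries, against 85.8, 42.9, 43.6 and 78.2 CPM in CD11b- libraries (1.96-fold higher, adjusted p = 0.0110). Ssr2 had 200, 172, 220 and 302 CPM in CD11b+ libraries, against 161, 137, 109 and 105 CPM in CD11b- libraries (1.80-fold higher, adjusted p = 0.00933). None of these 3 genes had overlapping groups. Ssr1 was the most abundant of the 45 genes by CPM in both sorts, at 2956 ± 701 CPM across CD11b+ and 1740 ± 673 CPM across CD11b- (SD, n = 4). It was not called (log2 0.82, SE 0.29, adjusted p = 0.0594), and its groups overlapped through CD11b- replicate 1. Without that library its adjusted p was 0.0356. Without the 2 CD11b- libraries highest in Mpo, which include it, Ssr1 was 2.52-fold higher (log2 1.33, adjusted p = 0.0118, range over all alternatives 0.0118 to 0.151).

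Signal peptidase, the membrane protease that removes signal peptides, had 4 of 5 genes higher in CD11b+ (80%, against 14.6% of all genes). Spcs3, an accessory subunit, had 782, 616, 641 and 782 CPM in CD11b+ libraries, against 351, 268, 243 and 189 CPM in CD11b- libraries. It was 2.77-fold higher (log2 1.47, SE 0.19, edgeR adjusted p = 0.000305). Sec11c, which encodes a catalytic subunit, had 556, 472, 509 and 602 CPM in CD11b+ libraries, against 309, 306, 281 and 296 CPM in CD11b- libraries. The CD11b- values lay within 281 to 309 CPM, all below CD11b+ (1.85-fold higher, adjusted p = 0.000385). Sec11a, the alternative catalytic subunit, had 232, 170, 170 and 240 CPM in CD11b+ libraries, against 165, 125, 119 and 120 CPM in CD11b- libraries. Its groups came close but did not overlap (1.59-fold higher, adjusted p = 0.0150).

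Spcs2, another accessory subunit, was at 829 ± 165 CPM across CD11b+ and 575 ± 105 CPM across CD11b- (SD, n = 4). It was 1.49-fold higher with overlapping groups (edgeR adjusted p = 0.0406). Leaving out CD11b+ replicate 1 or 4, or CD11b- replicate 2, 3 or 4, ended its call, with an adjusted p of 0.0365 to 0.0987 over the 8 left-out libraries. Spcs1, the smallest difference of the complex, was at 160 ± 14.4 CPM across CD11b+ and 145 ± 15.2 CPM across CD11b- and was not called (log2 0.19, adjusted p = 0.324).

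Oligosaccharyltransferase transfers the glycan to asparagine residues, and 5 of its 7 genes were higher in CD11b+ (71.4%, against 14.6% of all genes). Ddost, a subunit shared by all forms of the enzyme, had 682, 650, 580 and 819 CPM in CD11b+ libraries, against 362, 242, 254 and 254 CPM in CD11b- libraries (2.54-fold higher, log2 1.34, SE 0.17, edgeR adjusted p = 0.000219). Stt3b, a catalytic subunit, had 381, 394, 378 and 359 CPM in CD11b+ libraries, against 202, 143, 135 and 176 CPM in CD11b- libraries (2.39-fold higher, adjusted p = 0.000113). Rpn1, which binds ribosomes and substrates, had 599, 551, 537 and 615 CPM in CD11b+ libraries, against 336, 376, 215 and 210 CPM in CD11b- libraries (2.10-fold higher, adjusted p = 0.00244). In none of the 3 did the groups overlap. Rpn2, a further shared subunit, was 1.80-fold higher at 731 ± 81.6 CPM across CD11b+ and 420 ± 79.7 CPM across CD11b- (adjusted p = 0.00270). Dad1 and Ost4, small subunits of the same enzyme, were not called, at log2 -0.12 (adjusted p = 0.646) and -0.15 (adjusted p = 0.763).

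The enzyme exists with either of 2 catalytic subunits, Stt3a in the form that works beside the channel as the chain enters and Stt3b in the form that can act later. Stt3a was 1.37-fold higher at 679 ± 19.8 CPM across CD11b+ and 510 ± 86.1 CPM across CD11b- (SD, n = 4, edgeR adjusted p = 0.0378). Its call was lost when any CD11b+ library, or CD11b- replicate 2 or 4, was left out (adjusted p from 0.0175 to 0.0828 over the 8 left-out libraries). The ratio of Stt3a to Stt3b, chosen after the values were seen and given without a test, was 1.80 ± 0.113 in CD11b+ and 3.15 ± 0.508 in CD11b-. Each CD11b+ library had the lower ratio, 1.68 to 1.95, against 2.51 to 3.75 in CD11b- libraries. The catalytic subunits of signal peptidase, set against each other in the same way as Sec11a over Sec11c, stood at 0.378 ± 0.0382 in CD11b+ and 0.442 ± 0.0607 in CD11b-, with overlap.

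**Figure D3:**
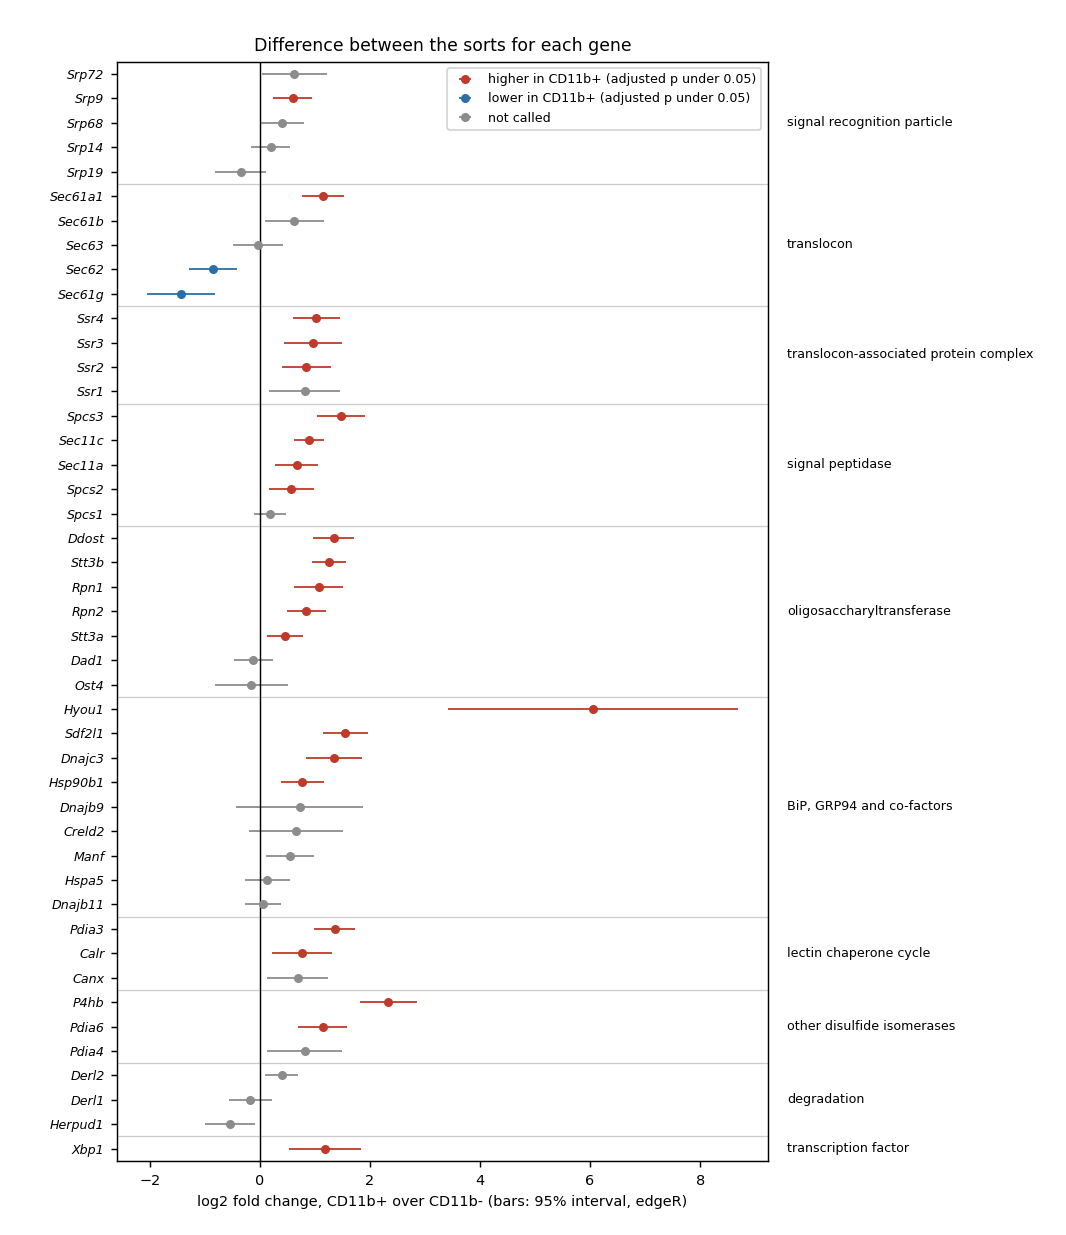
Log2 fold change, CD11b+ over CD11b-, of each of the 45 genes with its 95% interval from edgeR, by role and in order of size within each role; red marks genes called higher in CD11b+, blue those called lower and grey those not called. The 23 higher genes include Hyou1 at 6.05, with the widest interval, and the 2 lower genes are Sec61g and Sec62 of the translocon. Hyou1 passed the filter on low counts only through CD11b+, so its call is a description.

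The chaperones did not move as a block. Hspa5 encodes BiP, the main Hsp70 chaperone of the compartment and the classic marker of its stress. It had 1947, 1174, 1819 and 2030 CPM in CD11b+ libraries, against 1748, 1503, 1669 and 1597 CPM in CD11b- libraries. The lowest value of all 8 was that of CD11b+ replicate 2, and the groups overlapped. The log2 fold change was 0.14, with a 95% interval from -0.27 to 0.54 (edgeR adjusted p = 0.649). Hsp90b1 (GRP94), the Hsp90 of the compartment, was 1.70-fold higher at 668 ± 92.3 CPM across CD11b+ and 407 ± 100 CPM across CD11b- (SD, n = 4, adjusted p = 0.00796).

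Of the co-factors of BiP, 3 had the largest differences. Sdf2l1, which works with BiP and its J-domain partners, had 319, 182, 276 and 313 CPM in CD11b+ libraries, against 104, 96.0, 91.6 and 91.4 CPM in CD11b- libraries (2.93-fold higher, log2 1.55, SE 0.18, edgeR adjusted p = 0.000151). Dnajc3 (p58IPK), a J-domain partner, had 321, 243, 372 and 345 CPM in CD11b+ libraries, against 107, 127, 172 and 106 CPM in CD11b- libraries (2.55-fold higher, adjusted p = 0.00130). Hyou1 (GRP170), which exchanges the nucleotide of BiP, had 9.12, 7.31, 3.99 and 4.78 CPM in CD11b+ libraries, against 0.106, 0.143, 0.124 and 0 CPM in CD11b- libraries. Hyou1 was the least abundant of the 45 genes in both sorts, and nearly all of its reads were from CD11b+, 1006 counts against 12 in the pooled CD11b- libraries. It passed the filter on low counts only through CD11b+, the sort in which it was high, so its call is a description and its fitted fold rests on those few counts. With a filter of at least 10 CPM in 4 libraries Hyou1 was not tested, and 22 of the other genes were higher. On the log2(CPM + 1) scale its difference was 2.68.

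The other J-domain and stress co-factors were not called. Dnajb11 (ERdj3), a J-domain partner that binds unfolded chains, was at 345 ± 22.5 CPM across CD11b+ and 341 ± 38.9 CPM across CD11b- (SD, n = 4), with a log2 fold change of 0.05 and a 95% interval from -0.27 to 0.38. Dnajb9 (ERdj4) was at 20.6 ± 5.89 CPM across CD11b+ and 13.1 ± 8.13 CPM across CD11b- (edgeR adjusted p = 0.350). Both values of Dnajb9 were low and spread widely. Manf, a secreted stress-induced protein that binds BiP, was at 196 ± 32.8 CPM across CD11b+ and 137 ± 27.1 CPM across CD11b- (adjusted p = 0.0585). Without CD11b+ replicate 2 (adjusted p = 0.0408) or CD11b- replicate 3 (0.0364) Manf was called, within a range of 0.0228 to 0.267 over all alternatives. Creld2, another stress-induced protein, was at 262 ± 90.0 CPM across CD11b+ and 170 ± 84.3 CPM across CD11b- (adjusted p = 0.244).

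The endoplasmic reticulum stress element, a promoter motif bound by ATF6 and XBP1 together with NF-Y, was first described in genes of this kind, so the promoters of the 45 genes were searched for it. RefSeq promoter windows (build GRCm38.p6, from 250 bases before to 50 bases after the start of the gene) were found for 36 of the 45 genes. The element, spelled CCAAT, any 9 bases and CCACG and searched on both strands, was found in 7 of the 36 windows (19.4%) and in 37 of 27025 genes with a window (0.137%). The second form, ATTGG, any 1 base and CCACG, was found in 2 of the 36, Herpud1 and Dnajb11, and in 12 of all genes (0.0444%). The elements are printed here because their factors belong to the stress response described with Xbp1. They are given with 20 flanking bases on either side, on the strand of the gene and with the motif in capitals. In Calr, Creld2 and the first Hsp90b1 stretch the motif reads on the other strand, and the Dnajb11 match lies past the start of the gene and is not printed.
Hspa5: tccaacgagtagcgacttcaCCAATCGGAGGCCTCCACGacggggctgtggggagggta
Hsp90b1: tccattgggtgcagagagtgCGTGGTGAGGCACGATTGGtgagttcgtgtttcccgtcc
Hsp90b1: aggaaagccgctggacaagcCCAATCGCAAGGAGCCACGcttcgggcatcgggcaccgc
Dnajc3: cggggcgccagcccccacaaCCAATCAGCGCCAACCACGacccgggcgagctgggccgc
Creld2: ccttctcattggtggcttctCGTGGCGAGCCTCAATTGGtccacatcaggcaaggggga
Calr: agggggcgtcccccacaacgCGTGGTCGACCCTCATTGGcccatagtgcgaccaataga
Canx: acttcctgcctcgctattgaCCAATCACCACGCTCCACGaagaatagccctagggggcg
Pdia6: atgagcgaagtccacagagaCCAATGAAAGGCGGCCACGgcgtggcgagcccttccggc
Herpud1: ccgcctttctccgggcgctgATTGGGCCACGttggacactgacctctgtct

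The stretches lie at chr2:34772005-34772063 (plus strand) for Hspa5, chr10:86705513-86705571 and chr10:86705618-86705676 (minus strand) for Hsp90b1, chr14:118937807-118937865 (plus strand) for Dnajc3 and chr15:88819500-88819558 (plus strand) for Creld2. Those of the lectin genes lie at chr8:84847055-84847113 (minus strand) for Calr and chr11:50325780-50325838 (minus strand) for Canx. Pdia6 has its stretch at chr12:17266471-17266529 (plus strand) and Herpud1 at chr8:94386357-94386407 (plus strand). All coordinates are GRCm38.p6. The motif ends 46 bases before the start in Hspa5, 41 in Herpud1, 79 in Pdia6, 86 in Dnajc3, 107 in Creld2, 126 in Canx and 143 in Calr, and 88 and 193 bases before it in Hsp90b1. Of the 7 genes with the first form, 4 were higher in CD11b+ (Hsp90b1, Dnajc3, Calr and Pdia6) and 3 were not called (Hspa5, Canx and Creld2). Of the 29 genes with a window and without it, 14 were higher, 2 lower and 13 not called. Over all genes tested, 14.6% were higher and 15.0% lower. Both genes with the second form were not called. A match describes letters in the window and does not show binding.

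In the lectin chaperone cycle, calnexin and calreticulin hold glycoproteins by a trimmed glycan while Pdia3 (ERp57) forms their disulfide bonds. Pdia3 had 1372, 1052, 1186 and 1521 CPM in CD11b+ libraries, against 608, 482, 518 and 450 CPM in CD11b- libraries. It was 2.56-fold higher (log2 1.36, SE 0.16, edgeR adjusted p = 0.000168), with every CD11b+ library above every CD11b- library. Calr, the soluble lectin calreticulin, had 146, 99.4, 114 and 168 CPM in CD11b+ libraries, against 87.8, 112, 52.5 and 69.7 CPM in CD11b- libraries. It was 1.70-fold higher with overlapping groups (adjusted p = 0.0403). That call was lost in 6 of the 8 fits that left out a library, namely CD11b+ replicate 1, 3 or 4 or CD11b- replicate 1, 3 or 4 (adjusted p from 0.0145 to 0.111 over the 8). Canx, the membrane lectin calnexin, was at 1095 ± 271 CPM across CD11b+ and 699 ± 189 CPM across CD11b- (SD, n = 4). Its groups did not overlap, yet it was not called (log2 0.69, adjusted p = 0.0640). Without CD11b- replicate 3 its adjusted p was 0.0487 (from 0.0228 to 0.156 over all alternatives).

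The remaining disulfide isomerases included P4hb, with the largest fold among the members above 10 CPM. P4hb encodes the founding protein disulfide isomerase, also the beta subunit of prolyl 4-hydroxylase. It had 1545, 1388, 1699 and 1662 CPM in CD11b+ libraries, against 477, 252, 323 and 234 CPM in CD11b- libraries. The lowest CD11b+ library lay far above the highest CD11b- library, and P4hb was 5.05-fold higher (log2 2.34, SE 0.23, edgeR adjusted p = 5.13e-05). Pdia6, an isomerase that also binds BiP, had 683, 510, 633 and 660 CPM in CD11b+ libraries, against 389, 251, 305 and 214 CPM in CD11b- libraries (2.20-fold higher, log2 1.14, SE 0.20, adjusted p = 0.00183). Pdia4 (ERp72), a further isomerase, was at 143 ± 28.6 CPM across CD11b+ and 82.7 ± 31.0 CPM across CD11b- (SD, n = 4) and was not called (adjusted p = 0.0721). Without CD11b- replicate 2 its adjusted p was 0.0432 (from 0.0353 to 0.165 over all alternatives).

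None of the 3 degradation genes was called, against 29.7% of all genes tested. Herpud1, a stress-induced membrane protein that gathers the degradation machinery, had 569, 364, 542 and 410 CPM in CD11b+ libraries, against 570, 658, 807 and 783 CPM in CD11b- libraries. All CD11b+ values lay below all CD11b- values, by the narrowest margin at CD11b- replicate 1 (log2 -0.54, SE 0.20, edgeR adjusted p = 0.0697). Without CD11b- replicate 1 its adjusted p was 0.0424, and without the 2 CD11b- libraries highest in Mpo 0.0441 (range over all alternatives 0.0223 to 0.179). Derl1 and Derl2 encode derlins, membrane proteins through which chains are passed back to the cytosol. Derl1 was at 109 ± 22.2 CPM across CD11b+ and 127 ± 19.4 CPM across CD11b- (adjusted p = 0.525). Derl2 was at 148 ± 17.2 CPM across CD11b+ and 116 ± 9.45 CPM across CD11b- without overlap (SD, n = 4, adjusted p = 0.0519).

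Xbp1, the transcription factor gene, had 552, 419, 563 and 546 CPM in CD11b+ libraries, against 241, 202, 354 and 132 CPM in CD11b- libraries. It was 2.27-fold higher in CD11b+ without overlap (log2 1.18, SE 0.29, edgeR adjusted p = 0.0126). Without the 2 CD11b- libraries highest in Mpo the fold was 2.12 and the adjusted p 0.0900 (from 0.000835 to 0.0900 over all alternatives). XBP1 becomes active after its mRNA is cut and rejoined in the cytosol, and counts per gene do not separate that form from the uncut mRNA. Markers of plasma cells, which depend on XBP1, were lower in CD11b+ in 6 of 7 tested. They summed to 27.1 to 73.1 CPM in CD11b+ libraries and 226 to 594 CPM in CD11b- libraries. Prdm1 was not called (log2 0.40, edgeR adjusted p = 0.918). Irf4 was at 0 in 2 CD11b+ libraries and passed the filter on low counts only through CD11b-, where it was high. The part of plasma cells in the level of Xbp1 was not tested.

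Other genes of the unfolded protein response did not all share the direction of Xbp1. The sensor genes Ern1 (IRE1 alpha, which cuts the Xbp1 mRNA), Eif2ak3 (PERK) and Atf6 were not called. Ern1 had 0.767, 4.67, 5.16 and 15.8 CPM in CD11b+ libraries, against 5.99, 10.1, 0 and 0.988 CPM in CD11b- libraries (edgeR adjusted p = 0.779). Eif2ak3 had 24.6, 52.2, 33.0 and 22.3 CPM in CD11b+ libraries, against 29.0, 0.371, 17.1 and 20.6 CPM in CD11b- libraries (adjusted p = 0.438). The sensors spread widely within each group, which limits what could be detected. Atf6 had 24.8, 47.8, 19.9 and 40.0 CPM in CD11b+ libraries, against 29.8, 42.2, 47.5 and 7.54 CPM in CD11b- libraries (adjusted p = 0.935).

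Of the effectors downstream of PERK, Atf4, Ddit3 and Ppp1r15a were lower in CD11b+, and Trib3 (edgeR adjusted p = 0.714) and Ppp1r15b (adjusted p = 0.549) were not called. Trib3, a target of ATF4 and CHOP, averaged 1.87 ± 2.71 CPM across CD11b+ and 4.64 ± 3.34 CPM across CD11b-, and Ppp1r15b, the constitutive relative of Ppp1r15a, 111 ± 17.4 CPM across CD11b+ and 127 ± 11.2 CPM across CD11b- (SD, n = 4). Atf4, a transcription factor whose translation rises when PERK acts, had 126, 108, 90.9 and 97.1 CPM in CD11b+ libraries, against 253, 283, 272 and 183 CPM in CD11b- libraries (2.29-fold lower, edgeR adjusted p = 0.00108). Ddit3 (CHOP), a target of ATF4, had 1.26, 1.01, 2.19 and 2.91 CPM in CD11b+ libraries, against 15.3, 21.5, 7.20 and 16.0 CPM in CD11b- libraries (7.82-fold lower, adjusted p = 0.00413). Ppp1r15a (GADD34), which leads the phosphatase that reverses PERK's effect, had 43.6, 17.0, 13.5 and 27.6 CPM in CD11b+ libraries, against 1304, 1385, 1380 and 1758 CPM in CD11b- libraries. It was 55.5-fold lower in CD11b+ (adjusted p = 6.61e-06). In Atf4, Ddit3 and Ppp1r15a every CD11b+ library lay below every CD11b- library. These genes also answer to other stresses that act through ATF4, which counts cannot separate.

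**Figure D4:**
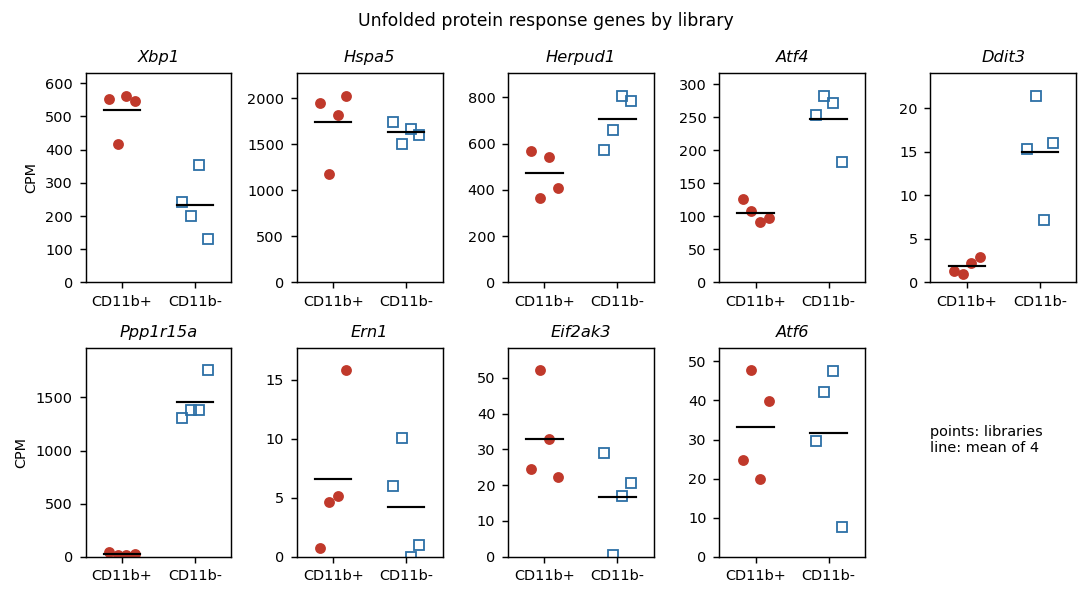
CPM of 9 genes of the unfolded protein response in each library, with CD11b+ on the left and CD11b- on the right of each panel, a line at the mean of 4 libraries and a vertical axis of its own from 0. Xbp1 is higher in CD11b+, Atf4, Ddit3 and Ppp1r15a lie lower in CD11b+, and Hspa5 and the sensors Ern1, Eif2ak3 and Atf6 overlap. Herpud1 lies lower in CD11b+ by a narrow margin and was not called.

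Genes of the same pathway outside the 45 were taken from a list of 115 genes, of which 112 were in the files and 104 were tested. Of those, 28 were higher in CD11b+ (26.9%, against 14.6% of all genes), 18 were lower (17.3%, against 15.0%) and 58 were not called. Without the 2 CD11b- libraries highest in Mpo, 22 were higher and 15 lower. Their median log2 fold change was 0.34. Only the rows of the fit over all genes are given here, with no test over the list.

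Folding enzymes beyond the members were called higher in 10 of 28 tested (35.7%, against 14.6% of all genes) and lower in 4 (14.3%, against 15.0%). Ero1l, the oxidase that recharges P4hb with disulfide bonds, had 458, 523, 509 and 423 CPM in CD11b+ libraries, against 49.8, 42.0, 20.4 and 21.9 CPM in CD11b- libraries (14.9-fold higher, edgeR adjusted p = 1.17e-05). Without the 2 CD11b- libraries highest in Mpo it was 23.0-fold higher. Its paralogue Ero1lb was 2.58-fold higher (adjusted p = 0.0149). The ratio of Ero1l to Ero1lb, again chosen after the values were seen, was 19.0 ± 6.53 in CD11b+ and 3.16 ± 1.55 in CD11b- (SD, n = 4), without overlap.

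Txndc12 (ERp18), a thioredoxin-like protein, had 97.3, 77.9, 90.5 and 93.6 CPM in CD11b+ libraries, against 27.2, 26.5, 20.4 and 18.4 CPM in CD11b- libraries (4.01-fold higher, edgeR adjusted p = 4.98e-05). Cnpy3, a GRP94 co-factor for Toll-like receptors, had 105, 98.2, 112 and 93.1 CPM in CD11b+ libraries, against 25.3, 37.3, 13.0 and 34.7 CPM in CD11b- libraries (3.86-fold higher, adjusted p = 0.000683). Both were well apart between the sorts, as was Kdelr2, a receptor that returns escaped chaperones from the Golgi (3.25-fold higher, adjusted p = 0.00247). Prdx4, a peroxidase that offers another source of disulfide bonds, had 5.45, 7.56, 5.66 and 9.45 CPM in CD11b+ libraries, against 53.9, 72.6, 48.7 and 61.3 CPM in CD11b- libraries (8.15-fold lower, adjusted p = 3.86e-05). The other lower folding genes were Tmx1 (2.41-fold), Txndc5 (1.98-fold) and Dnajc10 (1.66-fold), all with a thioredoxin-like domain.

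Glycoprotein quality control genes were called higher in 6 of 14 tested (42.9%, against 14.6% of all genes). The 1 lower gene (7.14%, against 15.0%) was Ngly1 (1.61-fold). Edem1, which marks misfolded glycoproteins for degradation, was 3.77-fold higher at 800 ± 105 CPM across CD11b+ and 216 ± 71.8 CPM across CD11b- (SD, n = 4, edgeR adjusted p = 0.000371). Edem2, which starts the same trimming, was 2.41-fold higher, and Uggt1, which returns unfolded glycoproteins to calnexin, 2.14-fold. Genes of the degradation step itself split evenly, with 5 of 19 higher and 5 lower (26.3% each, against 14.6% and 15.0% of all genes). The lower ones included the ubiquitin ligases Rnf139 (5.64-fold) and Syvn1 (2.96-fold) and the lectin gene Erlec1 (3.86-fold), and the higher ones the lectin gene Os9 (1.67-fold) and the ubiquitin-conjugating enzyme gene Ube2g2 (2.23-fold).

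Among other genes of targeting and translocation 4 of 23 tested were higher (17.4%, against 14.6% of all genes) and 5 lower (21.7%, against 15.0%). Emc9 belongs to the membrane complex that inserts some membrane proteins, and had 3.42, 0.406, 1.88 and 8.37 CPM in CD11b+ libraries, against 43.6, 53.8, 65.0 and 24.3 CPM in CD11b- libraries. It was 13.2-fold lower (edgeR adjusted p = 0.00617), and 23.8-fold lower without CD11b+ replicate 4. Within the same complex Emc8 (1.95-fold) and Emc10 (1.49-fold) were lower, and Emc2 (2.64-fold) and Emc7 (1.74-fold) higher. Krtcap2 and Ostc, which tie oligosaccharyltransferase to the channel, were 2.58-fold and 1.93-fold higher, and Tusc3, a redox subunit of the Stt3b form, was 3.10-fold lower (adjusted p = 0.00612). The ratio of Magt1 to Tusc3, alternative subunits of that form, was 7.31 ± 2.95 in CD11b+ and 1.61 ± 0.551 in CD11b-, and that of Sec61a1 to its paralogue Sec61a2 was 26.0 ± 3.19 in CD11b+ and 7.01 ± 1.56 in CD11b-. Both ratios were chosen after the values were seen, and in neither did the groups overlap.

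Of 20 tested stress sensors and effectors, 3 were higher in CD11b+ besides the 3 lower ones given above. Each count is 15% of the list, near the shares of all genes (14.6% higher and 15.0% lower). Tmbim6, a membrane protein that dampens cell death, was 2.15-fold higher at 1690 ± 347 CPM across CD11b+ and 808 ± 340 CPM across CD11b- (SD, n = 4, edgeR adjusted p = 0.0149). Atf6b, a relative of Atf6, was 2.71-fold higher (adjusted p = 0.0464). Creb3l3, a membrane-bound transcription factor known from liver, had 656 counts in the pooled CD11b+ libraries and none in CD11b-. Like Hyou1 it passed the filter only through CD11b+. It was at least 164-fold higher in CD11b+ with the floor for the pooled CD11b- libraries set at 3 counts.

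**Figure D5:**
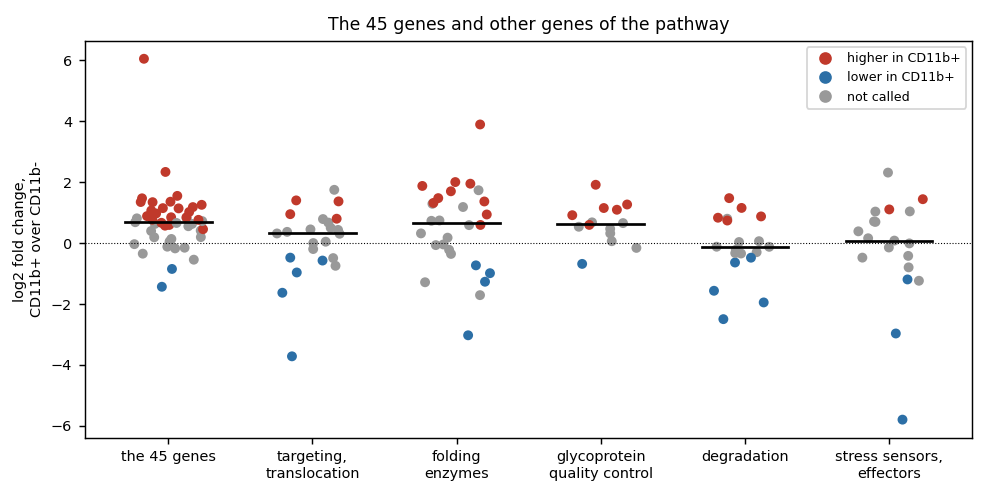
Log2 fold change, CD11b+ over CD11b-, of the 45 genes and of the other tested pathway genes by list, 1 point per gene, with the median as a line; red is called higher in CD11b+, blue lower and grey not called, and Creb3l3, with no count in CD11b-, is not drawn. The median of the 45 genes is 0.69. As many genes are called lower as higher in the degradation list, and also in the stress list once Creb3l3 is counted.

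Levels of different genes were compared per kilobase of exon, since CPM favours long transcripts. The length merges the exons of all of a gene's annotated transcripts. It can exceed that of the transcript present, which would set a gene's level and rank too low. On that scale the highest levels in CD11b+ were those of Sec11c (593 ± 62.7 CPM per kb), P4hb (550 ± 48.9), Hspa5 (464 ± 104) and Pdia3 (463 ± 74.3), whose neighbours in this order overlap in their spread. In CD11b- the order began with Hspa5 (434 ± 27.9 CPM per kb), Herpud1 (361 ± 56.8) and Sec11c (330 ± 14.1), and here too each neighbour overlaps the next in its spread. P4hb was rank 2 of 45 in CD11b+ and rank 15 in CD11b-. Herpud1 was rank 12 in CD11b+ and rank 2 in CD11b-. Ssr1, rank 1 by CPM in both sorts, has 10.2 kb of exon, and per kilobase it was rank 6 in CD11b+ and rank 5 in CD11b-. Hyou1 was last in both.

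Replicates of the 45 genes were close together. The median coefficient of variation was 16.7% in CD11b+ and 19.8% in CD11b-, against 21.7% in CD11b+ and 29.7% in CD11b- for the 8011 genes with a mean of at least 10 CPM. It was larger in CD11b- for 30 of the 45 genes (66.7%), and for 66.0% of those 8011 genes. The 8011 genes were not matched to the 45 by level, and the part of level in the smaller spread was not tested. Other markers moved with the sorts as well, beside those given above. Secondary granule and neutrophil genes (7 of 9 higher) summed to 63223 to 89211 CPM in CD11b+ libraries and 126 to 659 CPM in CD11b- libraries, and eosinophil genes (5 of 7 higher) to 6703 to 19203 CPM against 69.7 to 472 CPM in CD11b-. B progenitor genes (8 of 8 tested lower) summed to 53.2 to 129 CPM in CD11b+ libraries and 1138 to 2288 CPM in CD11b- libraries, and cell cycle genes (8 of 8 lower) to 3895 to 4120 CPM against 11058 to 14316 CPM in CD11b-. Plasmacytoid dendritic cell genes (5 of 6 lower) summed to 32.0 to 46.3 CPM in CD11b+ libraries and 152 to 227 CPM in CD11b- libraries. Basophil and mast cell genes overlapped, at 1647 to 4557 CPM in CD11b+ libraries and 258 to 4562 CPM in CD11b- libraries, with 1 of 7 higher. Their part in the results was not tested.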

How the data were processed

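SmartSeq2 libraries of 4 CD11b+ and 4 CD11b- sorts, described as biological replicates, were compared. The authors deposited whole-number counts per gene symbol for each library and a table of CPM. Counts scaled to library totals over all rows matched that table to within 0.0005 CPM. The submitters' processing notes name TopHat2, HTSeq 0.10.0, DESeq2 and mm9 without saying what each was used for. How strand and multiply mapped reads were handled, and which annotation was used, is not given in the sources used here, so reads of overlapping or antisense genes cannot be told apart. Of 18817 rows, 27 carry numbers in place of symbols and took 0.205% to 0.514% of counts; totals and tests leave them out.

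Deposited counts were fitted with edgeR 4.0.16 (R 4.3.3): TMM scaling, filterByExpr (minimum count 10, minimum total 15), the quasi-likelihood test, and p-values adjusted by Benjamini-Hochberg over 11965 genes with a threshold of 0.05, with no covariate. The prior count was 0.125, and standard errors come from the log2 fold change and its quasi-likelihood F. No 2 replicates were alike within sampling noise (chi-square over degrees of freedom 130 to 229). The script was tested on simulated data. Exon lengths (GENCODE M21, exons of a gene's basic transcripts merged) matched 18088 of 18790 genes (96.3%). For 32 of the 36 promoter windows the bases after the start were found in an annotated transcript on that strand.

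Values in each library are given for up to 3 called genes with the largest fold in each direction in each role, or for the most abundant gene where none was called, and for Xbp1 and Hspa5. Of the other pathway genes they are given for the 3 called with the largest fold in each direction among those with a mean of at least 5 CPM, and for Ern1, Eif2ak3, Atf6, Atf4 and Ddit3. Other genes were named from the lists after their values were seen. The members and lists were chosen with earlier results of these data known. Alternatives were DESeq2 1.42.0, limma 3.58.1 on log2(CPM + 1), RLE factors, no scaling, totals without the 20 most abundant genes, no filter on low counts, at least 10 CPM in 4 libraries, a replicate block, leaving out each library, and leaving out the 2 CD11b- libraries highest in Mpo.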

Additional observations from a re-analysis of the deposited data

Results flagged for a closer look

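In 5 of 116 groups of 4 libraries screened, over the 45 genes, the other pathway genes given by library, Mpo and Car2, 1 library stood apart from the other 3, with a gap to its nearest neighbour that passed Dixon's 95% limit for 4 values as a share of the group's range. Chance flags about 1 in 20 groups. In CD11b+ replicate 2, Srp72 was high at 86.0 CPM (0.834 of the range) and Xbp1 low at 419 CPM (0.882). In CD11b- replicate 1, Spcs1 was high at 167 CPM (0.854), Sec11a at 165 CPM (0.867) and Ddost at 362 CPM (0.896).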

How the results depend on the processing

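Of 25 called members, 19 kept their call in every alternative in which they were tested, and 696 of 764 values of single members stayed on the same side of the threshold and in the same direction. Between 20 and 29 members were higher in CD11b+ and 2 or 3 lower in every alternative, with 29 and 3 by DESeq2, which left 4424 genes without an adjusted p, 27 and 3 by limma, 20 and 3 with no scaling and 29 and 2 with totals without the 20 most abundant genes. The last of these moved the median log2 fold change of all genes from -0.01 to 0.10. Over all alternatives 3035 to 4745 genes were called, 46.9% to 54.9% of them higher, and the members' median log2 fold change was 0.64 to 0.84. Directions turned only in genes that were not called: Sec63 with those totals (0.065), Dad1 (0.049) and Dnajb11 (-0.062) without the 2 CD11b- libraries highest in Mpo, and, over the fits without 1 library, Sec63 (-0.12 to 0.061), Ost4 (-0.29 to 0.18), Dnajb11 (-0.0043 to 0.18), Ern1 (-0.18 to 1.60) and Atf6 (-0.24 to 0.41). Sec61b and Derl2 were called by DESeq2 (adjusted p = 0.0472 and 0.0149) and with those totals (0.0408 and 0.0216), within 0.0408 to 0.195 and 0.0149 to 0.189 over all alternatives. The cause was not tested. Deviations of libraries with the same replicate number correlated little (r from 0.00225 to 0.0430, and 2 of 8 libraries correlated best with their own number). The labels do not say whether such libraries share a mouse or a sort day, and these correlations cannot decide it. The main fit did not use the numbers as pairs. With the replicate number as a block 3195 genes were called, with 23 members higher and 2 lower. That block ended the calls of Spcs2 (adjusted p = 0.0749), Stt3a (0.0565) and Calr (0.0696) and called Ssr1 (0.0436), Manf (0.0260) and Canx (0.0228). Low counts limit Hyou1 and Creb3l3, with 12 and 0 counts over the CD11b- libraries.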
